A study of Mus musculus with 4 samples.

Results

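The nuclear genes for the subunits of oxidative phosphorylation were followed in synovial mononuclear cells during serum-induced arthritis. A gene counted as a member when it was listed in all 4 count matrices and its symbol began with Ndufa, Ndufb, Ndufc, Ndufs, Ndufv, Sdh, Uqcr, Cox4i, Cox5, Cox6, Cox7, Cox8 or Atp5, Ndufaf genes being left out. This gave 83 genes of the 11195 listed in all 4 libraries, of which 37 fell under complex I by prefix, 8 under complex II, 8 under complex III, 14 under complex IV and 16 under complex V. Cox4i2 and Ndufa4l2 carry a member prefix but were not listed in every library. Ndufa4 is grouped with complex I by its name and sits in complex IV, and Sdhaf1, Sdhaf2, Sdhaf3 and Sdhaf4 are assembly factors of complex II that the prefix takes in.

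The cells came from Cx3cr1creER:tdTomato mice, in which a Cx3cr1-driven inducible Cre recombinase switches on a red reporter. All groups, the one without serum included, received tamoxifen at 4 mg/ml, given 2 times within 48 h, 4 weeks before the serum. Arthritogenic K/BxN serum was then transferred, and CD45+CD11b+Ly6G- cells of hind paw synovium were sorted at steady state (day 0) and at days 1, 2 and 5. Each day is represented by 1 library with 17400 cells loaded, and the labels give no number of mice. Day and library cannot be told apart, so no p-value is given. Intervals are exact 95% intervals that cover counting error only.

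Oxidative phosphorylation passes electrons from NADH and succinate through complexes I to IV of the inner mitochondrial membrane and uses the resulting proton gradient to make ATP at complex V, the ATP synthase. Most subunits are encoded in the nucleus and imported, while a small core of complexes I, III, IV and V is encoded by mitochondrial DNA. Complex II is encoded in the nucleus throughout. Macrophages alter the balance between this pathway and glycolysis with their state of activation, and osteoclasts, the bone-resorbing cells of the same lineage, are rich in mitochondria.

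A UMI (unique molecular identifier) marks 1 captured transcript. Filtering on 500 genes or more and less than 10% of UMIs from mitochondrial DNA left 3715, 4642, 2722 and 3235 barcodes at days 0, 1, 2 and 5. They held 4347517, 18373038, 12159063 and 14901661 UMIs. The day 0 library was shallow, with a median of 1057 UMIs per retained barcode against 3607.5 to 4183.5 at the later days, and the gene minimum removed 3760 of its 7542 barcodes. The part of that loss in the day 0 values was not tested beyond the alternative minimums below. All 7 myeloid markers were listed on every day with a summed level of 23801 to 31380 CPM (a count scaled to the retained UMIs of its library). Of 6 neutrophil markers 1 or 2 were listed, at 7.08 to 21.5 CPM, and Ly6g was not among them. Fibroblast markers summed to 43.2 to 120 CPM, skeletal muscle markers to 4.46 to 10.4 CPM, and B cell and endothelial markers to under 4 CPM on any day. T and NK cell markers summed to 11.3 CPM at day 0 and were not listed later. Erythroid markers were not listed at day 0 and summed to 29.2, 5.18 and 161 CPM at days 1, 2 and 5. The part of these cells in the results was not tested.

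Ndufab1, the acyl carrier protein of complex I, and Atp5g3 and Atp5g1, which encode the c subunit of the ATP synthase rotor, had the highest ratios between Acp5-positive and Acp5-negative barcodes of day 5 described below. For these 3 and for Atp5g2, the other gene of the c subunit, the 250 bases before their RefSeq transcription start are printed here (GRCm38.p6, written 5′ to 3′ in the direction of transcription). Capitals mark matches to 4 motifs searched on both strands: GCGC, any 2 bases and GCGC again for NRF1, CCGGAAG for ETS factors, AAGATGGC for YY1 and TCAAGGTCA for the oestrogen-related receptors (ERR).

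Atp5g3, chr2:73911327-73911576, minus strand: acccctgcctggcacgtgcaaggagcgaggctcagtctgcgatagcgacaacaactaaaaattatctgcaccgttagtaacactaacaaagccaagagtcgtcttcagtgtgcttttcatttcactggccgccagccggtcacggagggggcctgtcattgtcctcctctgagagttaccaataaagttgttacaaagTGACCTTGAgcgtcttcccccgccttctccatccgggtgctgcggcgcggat
Atp5g1, chr11:96075632-96075881, minus strand: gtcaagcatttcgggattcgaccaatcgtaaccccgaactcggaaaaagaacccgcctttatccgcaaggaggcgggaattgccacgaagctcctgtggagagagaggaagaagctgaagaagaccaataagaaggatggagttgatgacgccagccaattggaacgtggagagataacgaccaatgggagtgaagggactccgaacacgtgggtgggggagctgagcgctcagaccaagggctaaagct
Atp5g2, chr15:102671048-102671297, minus strand: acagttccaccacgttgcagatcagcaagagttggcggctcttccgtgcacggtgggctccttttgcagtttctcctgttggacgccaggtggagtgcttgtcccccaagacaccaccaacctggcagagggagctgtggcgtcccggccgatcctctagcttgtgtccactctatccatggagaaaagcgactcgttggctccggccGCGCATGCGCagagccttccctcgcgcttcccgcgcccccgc
Ndufab1, chr7:122101849-122102098, minus strand: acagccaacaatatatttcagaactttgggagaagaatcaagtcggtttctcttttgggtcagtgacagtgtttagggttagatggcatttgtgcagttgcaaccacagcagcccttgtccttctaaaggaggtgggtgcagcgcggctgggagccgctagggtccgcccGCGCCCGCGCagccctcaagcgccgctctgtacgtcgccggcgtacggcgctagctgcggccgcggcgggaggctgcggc

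The Atp5g3 window held the ERR motif on the strand opposite the gene, the Atp5g2 and Ndufab1 windows each held 1 NRF1 motif, and the Atp5g1 window held none of the 4. RefSeq windows were found for 71 of the 83 members. Of these 15 held the NRF1 motif (21.1%, against 5.64% of 27025 genes), 14 the ETS motif (19.7% against 7.83%), 1 the YY1 motif (1.41% against 1.83%) and 1 the ERR motif (1.41% against 0.422%). A gene counted once if any of its windows held the motif, and members had 1.07 windows per gene against 1.22 for all genes. Matching letters are a description and not a measured site. The windows depend on the start that is used. In GENCODE gene positions Atp5g2 reaches base 102672352, so its whole window lies inside that gene. Atp5g1 and Ndufab1 reach bases 96075670 and 122101886, inside their windows.

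Summed over the 83 genes, nuclear subunits took 2.94%, 2.82%, 2.78% and 3.17% of UMIs at days 0, 1, 2 and 5. The share was thus lower than at day 0 on days 1 and 2, with ratios of 0.959 (0.953 to 0.965) and 0.945 (0.939 to 0.951), and higher at day 5, with a ratio of 1.08 (1.07 to 1.08). Days 1, 2 and 5 share the day 0 library in these ratios. Against day 1, a library of like depth, the day 5 share was 1.12 times as high (1.12 to 1.13). A share of a pooled library does not separate more cells with a high share from more of this RNA in each cell. The median barcode had 2.90%, 2.78%, 2.70% and 2.78% at the 4 days, so the typical day 5 barcode lay below the typical day 0 barcode although the pooled share lay above it. The ratio of the mean barcode share at day 5 to that at day 0 was 0.989.

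**Figure D1:**
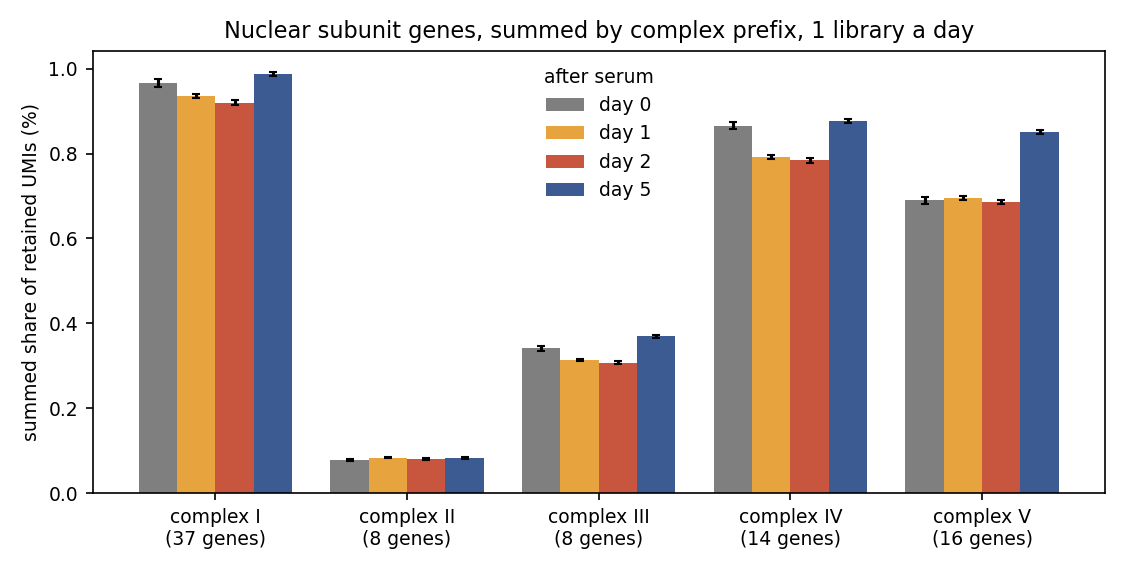
Share of retained UMIs (%) on the nuclear subunit genes of each complex, by day after serum; bars are 1 library each and error bars exact 95% intervals of counting error. The complex V bar stood at 0.850% at day 5, above the 0.685% to 0.695% of the other days.

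The day 5 difference was uneven across the complexes. Complex V, which makes the ATP, took 0.690%, 0.695%, 0.685% and 0.850% of UMIs at days 0, 1, 2 and 5, so that days 0 to 2 lay close together and day 5 stood apart at 1.23 times day 0 (1.217 to 1.248). Complex III, which hands electrons to cytochrome c, took 0.341%, 0.313%, 0.307% and 0.369%, and its day 5 ratio was 1.08. Complex IV, the oxygen-consuming oxidase, took 0.866%, 0.792%, 0.784% and 0.876%, a day 5 ratio of 1.01. Complex I, the NADH dehydrogenase, took 0.965%, 0.936%, 0.920% and 0.988%, a day 5 ratio of 1.02. Complex II, the succinate dehydrogenase, took 0.0773%, 0.0831%, 0.0806% and 0.0830%, the least of the 5 groups, with a day 5 ratio of 1.07.

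Of the 83 members, 81 passed a mean of 10 CPM over the 4 libraries; Cox6a2 and Atp5s did not. At day 5, 8 of the 81 were at least 1.5-fold higher than at day 0, where 15.1% of the 7103 genes tested were, and none was 1.5-fold lower, where 8.6% of all genes were. At day 1 the counts were 1 higher (13.4% of all genes) and 1 lower (4.6%), and at day 2 none was higher (13.2%) and 2 were lower (5.35%). Between days 5 and 1 no member passed 1.5-fold upward (6.36%) or downward (8.39%). The median log2 ratio to day 0 was -0.06, -0.03 and 0.11 at days 1, 2 and 5 for members and 0.15, 0.14 and 0.10 for all genes. A median-ratio scaling moves the log2 ratios of days 1, 2 and 5 by -0.15, -0.14 and -0.10. Between days 5 and 1 the median was 0.12 for members and -0.06 for all genes, and 61 of 81 members lay above a ratio of 1, including all 8 of complex III and all 15 tested of complex V.

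**Figure D2:**
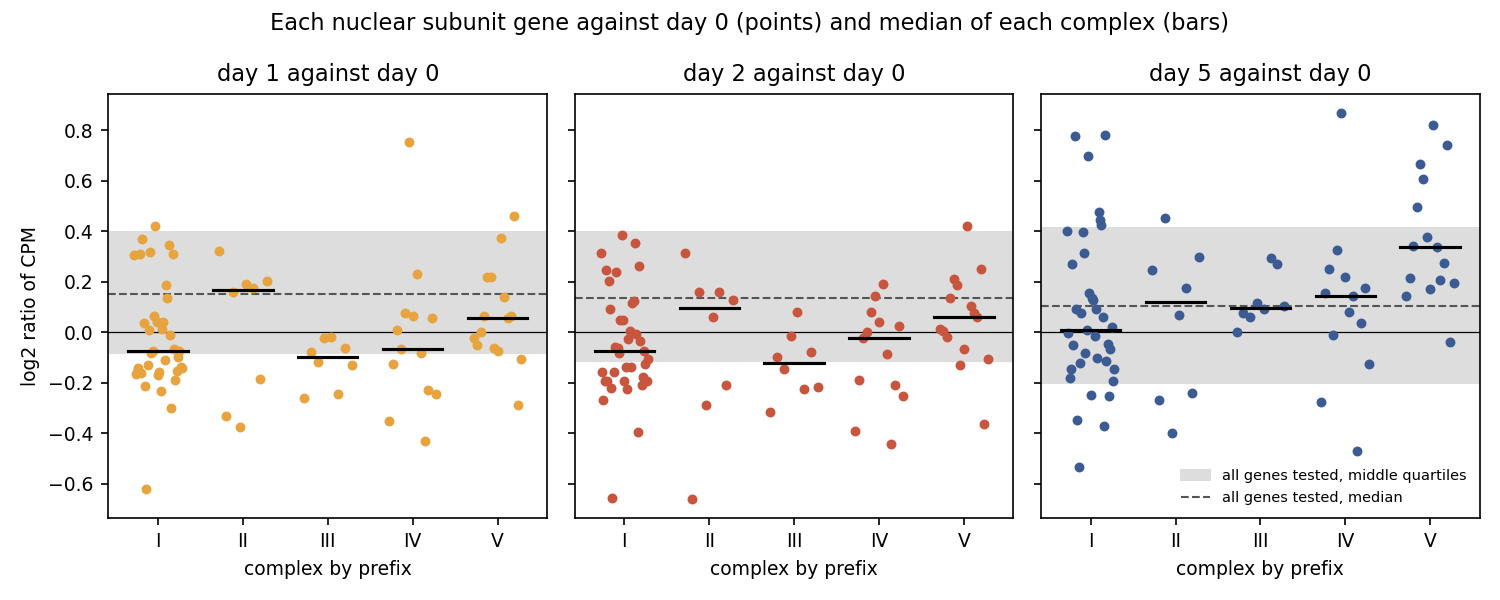
Log2 ratio of CPM to day 0 for each of the 81 tested nuclear subunit genes, by complex and day; short bars are the median of each complex, the dashed line the median of all 7103 genes tested and the grey band their middle quartiles. At day 5 the complex V median of 0.34 lay above the all-gene median of 0.10, while the complex I median was 0.01.

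Among complex V genes, Atp5g3, 1 of the 3 genes for the identical mature c subunit, had 164, 212, 220 and 290 CPM at days 0, 1, 2 and 5. Day 5 was its highest value and day 0 its lowest, with a day 5 to day 0 ratio of 1.77 (1.63 to 1.91). Atp5k, the e subunit at the base of the membrane part, had 311, 429, 371 and 521 CPM, a ratio of 1.67 (1.58 to 1.77), and was also the member with the highest named ratio at day 1 (1.38). Atp5e, the epsilon subunit of the central stalk, had 464, 540, 537 and 736 CPM, a ratio of 1.59 (1.51 to 1.66). These genes thus differed from day 0 already at days 1 and 2 and differed most at day 5. The catalytic beta subunit Atp5b had 600, 578, 601 and 695 CPM and the alpha subunit Atp5a1 374, 368, 377 and 413 CPM, so that only their day 5 values stood apart. Atp5l, the g subunit, was the 1 tested gene of complex V below its day 0 level at day 5, with 1401, 1148, 1088 and 1364 CPM.

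In complex I, accessory subunits moved in both directions. Ndufa3 had 209, 270, 240 and 357 CPM at days 0, 1, 2 and 5, a day 5 ratio of 1.71 (1.59 to 1.84). Ndufs4, a late-assembled subunit of the NADH-oxidising arm, had 66.5, 82.4, 79.8 and 114 CPM, a ratio of 1.72 (1.52 to 1.95). Ndufb2 had 135, 181, 177 and 220 CPM, a ratio of 1.62 (1.49 to 1.77). Day 0 was the lowest of the 4 values for all 3 genes. Ndufa6 ran the other way, with 523, 340, 332 and 361 CPM and ratios of 0.65, 0.634 and 0.69 at days 1, 2 and 5. Ndufs3, a core subunit, had 202, 164, 153 and 156 CPM (0.773 at day 5) and Ndufa5 260, 225, 223 and 204 CPM (0.785). Day 0 was the highest value for these 3.

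In complexes III and IV, Uqcrfs1, the Rieske iron-sulfur protein, had 203, 171, 174 and 249 CPM at days 0, 1, 2 and 5. Its ratio of day 5 to day 1 was 1.45 (1.39 to 1.53), the highest of the members in that comparison. Cox4i1, a regulatory subunit of the oxidase and its most abundant member by UMIs, had 1852, 1453, 1412 and 1528 CPM and was lower than at day 0 on each later day (0.785, 0.762 and 0.825). Cox7a2l, which links complexes III and IV into supercomplexes, had 528, 392, 389 and 382 CPM, with ratios of 0.741, 0.737 and 0.723. For Ndufa6, Cox4i1 and Cox7a2l, the 3 later libraries lay close together and day 0 alone stood apart.

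Several subunits have alternative genes for 1 position, and within these sets the balance differed between days. Among the c subunit genes, Atp5g3 made up 17.7%, 22.6%, 23.6% and 23.8% of the UMIs at days 0, 1, 2 and 5, Atp5g2 37.9%, 35.5%, 36.0% and 32.4%, and Atp5g1 44.4%, 41.9%, 40.4% and 43.8%. Of the Cox7a set, Cox7a2 held 48.9%, 54.4%, 54.5% and 59.0%, Cox7a2l 49.2%, 43.0%, 42.9% and 38.8%, and the muscle-type Cox7a1 1.91%, 2.64%, 2.57% and 2.20%. Cox6a1 and Cox6b1 held at least 98.3% of their pairs on every day, leaving the heart and muscle form Cox6a2 at 5.37 to 10.1 CPM and the testis form Cox6b2 at 8.05 to 14.7 CPM. Of the genes listed in part, Cox4i2 had 7.82, 1.36 and 1.81 CPM at days 0, 1 and 2, and Ndufa4l2 0.381 and 1.14 CPM at days 1 and 5. Cox8a was the 1 gene of its set that was listed. Many of these genes have near-identical processed copies in the genome, so reads may have been split or dropped in the counting.

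The genes around the pathway did not follow 1 course. The 13 mitochondrially encoded subunits took 3.51%, 2.72%, 2.74% and 2.91% of UMIs at days 0, 1, 2 and 5, a day 5 to day 0 ratio of 0.829 (0.824 to 0.834). This share also enters the barcode filter. Nuclear UMIs per mitochondrially encoded UMI were 0.830, 1.19, 1.16 and 1.32 in complex V and 1.20, 1.42, 1.38 and 1.53 in complex I. The 17 glycolysis genes took 0.364%, 0.393%, 0.415% and 0.560%, a day 5 ratio of 1.54 (1.51 to 1.57), and 6 of the 14 tested were at least 1.5-fold higher than at day 0, where 15.1% of all genes were. Among them Pkm, the last enzyme of glycolysis, had 496, 535, 582 and 1027 CPM. The 12 genes for carriers, cytochrome c and uncoupling had a summed day 5 ratio of 1.24 with 2 of 12 higher, Cycs, the cytochrome c gene, having 192, 194, 199 and 378 CPM. The tricarboxylic acid cycle list had a ratio of 1.20 with 1 of 16 higher (Mdh2, 194, 188, 177 and 299 CPM), assembly factors 1.13 with 4 of 30, biogenesis regulators 1.21 with 1 of 9 and mitochondrial ribosomal proteins 1.15 with 6 of 75. The shares called higher in the carrier, assembly factor and biogenesis lists were near that of all genes. None of these lists held a gene 1.5-fold lower at day 5, where 8.6% of all genes were. Cytosolic ribosomal protein genes took 14.8%, 13.0%, 12.6% and 16.4% of UMIs, and their part in the shares was not tested beyond leaving them out of the total.

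The members were next compared between barcodes with at least 1 UMI of a marker and barcodes with none, within each library. Sparc encodes a matrix glycoprotein, Aqp1 a water channel, Cd163 a haemoglobin scavenger receptor, H2-Aa an MHC class II chain, Plac8 a small protein of monocytes, Spp1 osteopontin, and Acp5 the tartrate-resistant acid phosphatase of osteoclasts and activated macrophages. The sets overlap, and a single UMI can come from free RNA. At day 5, Acp5 was found in 11.9% of Plac8-positive and 16.4% of Plac8-negative barcodes, at median depths of 3893.5 and 3897 UMIs. Sparc-positive barcodes had 0.982, 1.00, 1.01 and 0.889 times the member share of negative ones at days 0, 1, 2 and 5. The ratios were 0.970, 0.998, 0.990 and 0.937 for Cd163, 0.986, 1.08, 1.09 and 0.975 for Aqp1, and 0.963, 0.957, 0.958 and 1.08 for H2-Aa. Every barcode was also thinned to 500 UMIs, for the marker and the members alike. Each barcode then weighed the same, so a shift can come from the marker call or from the weighting. After this thinning the day 5 ratio was 1.02 for Aqp1 and 0.936 for H2-Aa, each on the other side of 1. At day 5, members at least 1.5-fold higher and lower numbered 1 (14.2% of all genes) and 2 (9.81%) for Sparc, 2 (14.6%) and 1 (5.08%) for Aqp1, 0 (10.5%) and 0 (5.03%) for Cd163, and 1 (2.86%) and 0 (7.98%) for H2-Aa.

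Plac8 marked 32, 59 and 52 barcodes at days 0, 1 and 2 and 826 at day 5. The member share in positive and negative barcodes was 2.98% and 3.23% at day 5, a ratio of 0.922 (0.916 to 0.928). The ratio was 1.10, 0.946 and 1.01 at days 0, 1 and 2. In the day 5 library 1 member was at least 1.5-fold higher (7.56% of all genes) and 4 were lower (24.8%). The mean ratio over the 4 libraries was 1.41 for Uqcrfs1 and 1.36 for Atp5c1, the gamma subunit of the central stalk, and 0.653 for Ndufa12 and 0.714 for Ndufa5, with the first 3 libraries resting on few barcodes. Uqcrfs1 had 336, 250, 243 and 279 CPM in positive and 202, 170, 173 and 239 CPM in negative barcodes at days 0, 1, 2 and 5.

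Spp1-positive barcodes had 1.00, 1.02, 1.02 and 1.18 times the member share of negative ones. At day 5 the shares were 3.48% in 1098 positive and 2.96% in 2137 negative barcodes, and 77 of 81 members had a ratio above 1, but none passed 1.5-fold upward (3.82% of all genes) or downward (6.76%). The median barcode had 2.86% in the positive and 2.75% in the negative set. The day 5 ratio was 0.993 (0.966 to 1.020) when every barcode was thinned to 500 UMIs, for Spp1 and the members alike. It was 1.03 (1.01 to 1.05) for the 115 positive barcodes with none of the other 6 markers, against all 2137 negative barcodes. The negative set still held barcodes with the other markers.

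**Figure D3:**
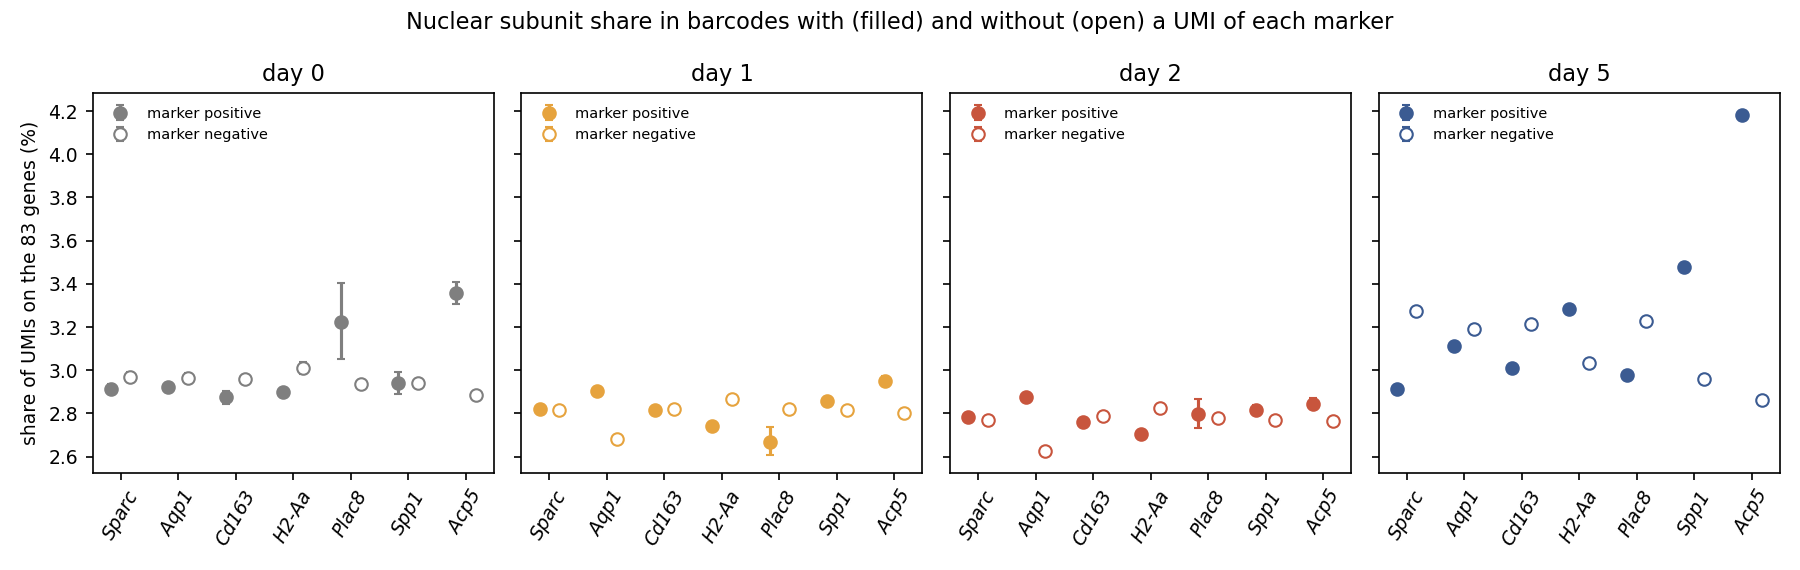
Share of UMIs on the 83 genes (%) in barcodes with (filled, left) and without (open, right) a UMI of each marker, 1 panel a day; error bars are exact 95% intervals of counting error. Acp5-positive barcodes of day 5 stood highest at 4.18%, against 2.86% in Acp5-negative barcodes.

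Acp5 gave the largest mean log2 ratio of the 7 markers and the largest ratio at days 0 and 5. Its ratio of pooled shares was above 1 in every library, but at day 2 the median positive barcode was not above the median negative one. At days 1 and 2 the Aqp1 ratio was larger. Positive barcodes had 3.36%, 2.95%, 2.84% and 4.18% of UMIs on the members at days 0, 1, 2 and 5, and negative barcodes 2.89%, 2.80%, 2.77% and 2.86%. The ratios of these pooled shares were 1.16 (1.14 to 1.18), 1.05 (1.05 to 1.06), 1.03 (1.02 to 1.04) and 1.46 (1.45 to 1.47). The median barcode had 3.26%, 2.86%, 2.68% and 3.03% in the positive set at days 0, 1, 2 and 5. In the negative set it had 2.87%, 2.77%, 2.70% and 2.75%. The typical positive barcode of day 5 thus lay far below the pooled 4.18%, and that of day 2 lay below the typical negative one. At day 5, 325 of the positive barcodes had 1 Acp5 UMI and a pooled share of 2.96%. Acp5-positive barcodes numbered 404, 454, 276 and 493. At day 5 their median was 4940 UMIs, against 3780 in negative barcodes. In that library 39 of 81 members were at least 1.5-fold higher, against 11.5% of all genes, and 1, Cox6b2, was lower, against 14.3%. The median log2 ratio was 0.58 for members and -0.05 for all genes. The count fell on every complex: 17 of 37 in complex I, 4 of 8 in complex II, 5 of 8 in complex III, 4 of 13 in complex IV and 9 of 15 in complex V. Cox6b2 and Cox7a2l were the 2 members below a ratio of 1. Other lists also took a larger share in the Acp5-positive barcodes of day 5. The ratio was 1.33 for cytosolic ribosomal protein genes, 1.28 for glycolysis genes and 1.08 for mitochondrially encoded subunits.

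By the mean ratio over the 4 libraries, the leading members for Acp5 were Atp5g3 (1.44) and Ndufab1 (1.40). Ndufab1 had 226, 169, 192 and 389 CPM in positive and 168, 164, 163 and 166 CPM in negative barcodes at days 0, 1, 2 and 5. Atp5g3 had 230, 230, 246 and 517 CPM in positive and 156, 210, 216 and 222 CPM in negative barcodes. Both genes lay far above the other values in the positive barcodes of day 5, at ratios of 2.35 (2.19 to 2.52) and 2.33 (2.19 to 2.47). The next 4 at day 5, picked once their values were known, were Atp5g1 (892 and 427 CPM, 2.09), Cox5a (1024 and 494 CPM, 2.07), the complex III subunit Uqcr10 (866 and 441 CPM, 1.963) and Ndufb6 (385 and 203 CPM, 1.90), the positive barcodes being given first. Within the Cox7a set at day 5, Cox7a2 held 66.8% in positive and 55.9% in negative barcodes, and Cox7a2l 31.4% and 41.8%.

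The member share was highest in the barcodes with most Acp5 UMIs, in classes set once the values were known. In barcodes with 0, 1, 2 to 4, 5 to 19 and 20 or more, the day 5 member share was 2.86%, 2.96%, 3.55%, 4.78% and 6.18%. The same classes had 2.89%, 3.02%, 3.43%, 4.24% and 4.65% at day 0, 2.80%, 2.86%, 2.75%, 3.42% and 5.79% at day 1, and 2.77%, 2.73%, 2.63%, 3.55% and 5.74% at day 2. The 2 upper classes held 74 and 7 barcodes at day 0, 15 and 7 at day 1, 8 and 5 at day 2, and 36 and 50 at day 5. Depth moved with these classes at days 1, 2 and 5. Their median UMIs at day 5 were 8802 and 18435.5 against 3780 in barcodes with none. The medians were 6607 and 8564 against 3496.5 at day 1, and 5873 and 10783 against 4036 at day 2. At day 0 depth did not move with the classes, with medians of 1114 and 1068 against 1054. Each class with Acp5 UMIs stood for a higher Acp5 CPM at day 0 than at day 5. Doublets were not removed, and their part was not tested. In the top class of day 5, 52% of barcodes had a UMI of the cycling genes Mki67 or Top2a, against 5.07% of barcodes without Acp5. A deeper barcode is more likely to have such a UMI, and the 2 genes summed to 221 and 44.4 CPM. At day 0 none of 7 barcodes had one, against 2.69%, at a far lower depth. The osteoclast genes Ctsk and Mmp9 were at 7474 and 2072 CPM in the top class of day 5 and at 80.0 and 4.88 CPM in barcodes without Acp5. They were higher still in the few top-class barcodes of the other days. Ctsk had 19533, 10852 and 17759 CPM and Mmp9 5916, 4730 and 4764 CPM there at days 0, 1 and 2. Other osteoclast genes did not all follow this. In the top class Dcstamp had 112, 63.2, 88.9 and 166 CPM at days 0, 1, 2 and 5, highest at day 5. Atp6v0d2 had 670, 759, 1458 and 679 CPM, Ocstamp 223, 278, 462 and 176 CPM, and Nfatc1 335, 253, 320 and 218 CPM. In barcodes of day 5 without Acp5 these genes had 3.40, 6.37, 8.72 and 30.5 CPM in that order. Calcr was not listed.

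**Figure D4:**
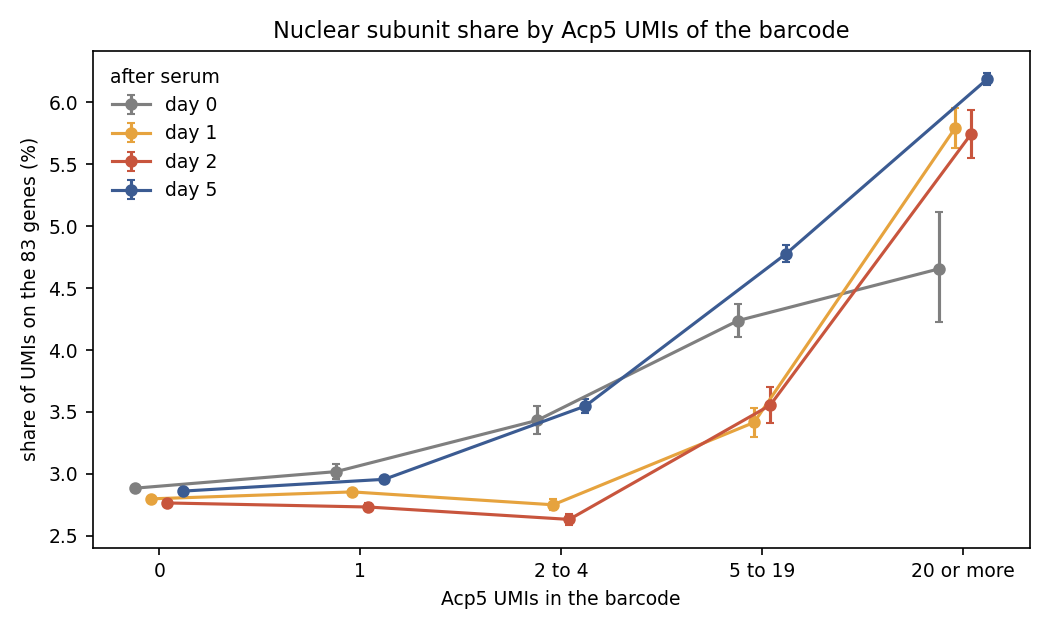
Share of UMIs on the 83 genes (%) against the number of Acp5 UMIs in the barcode, 1 line per day; error bars are exact 95% intervals of counting error. On each day the class of 20 or more stood highest, between 4.65% and 6.18%.

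Barcodes with at least 5 Acp5 UMIs were set against those with none at the 2 days with more than 50 such barcodes. The same UMI cut stood for a higher Acp5 level in the shallow day 0 library. Barcodes with 5 to 19 Acp5 UMIs had 7839 Acp5 CPM at day 0 and 985 CPM at day 5. Those with 20 or more had 17301 and 4071 CPM. The 2 days are thus not compared at a like Acp5 level. At day 5, 86 barcodes had 2.04 times the member share of the 2742 without (2.02 to 2.05), 68 of 81 members were at least 1.5-fold higher (22.7% of all genes) and 1, Cox6b2, was lower (33.9%). At day 0, 81 barcodes had 1.48 times the share of the 3311 without (1.44 to 1.53), 37 of 81 members were higher (20% of all genes) and none was lower (20.5%). Ndufab1 had 639 and 166 CPM at day 5 and 383 and 168 CPM at day 0 in barcodes with at least 5 and with none. Atp5g3 had 893 and 222 CPM at day 5 and 353 and 156 CPM at day 0. Atp5g1 had 1437 and 427 CPM at day 5 and 635 and 402 CPM at day 0. The catalytic Atp5b had 1615 and 595 CPM at day 5 and 1249 and 568 CPM at day 0, and the flavoprotein Sdha of complex II 243 and 106 CPM at day 5 and 252 and 96.3 CPM at day 0. Levels in barcodes without Acp5 were thus much alike on both days for these genes, except Atp5g3. Complexes III and V had all their tested members, 8 and 15, past 1.5-fold at day 5, and 4 and 7 at day 0.

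**Figure D5:**
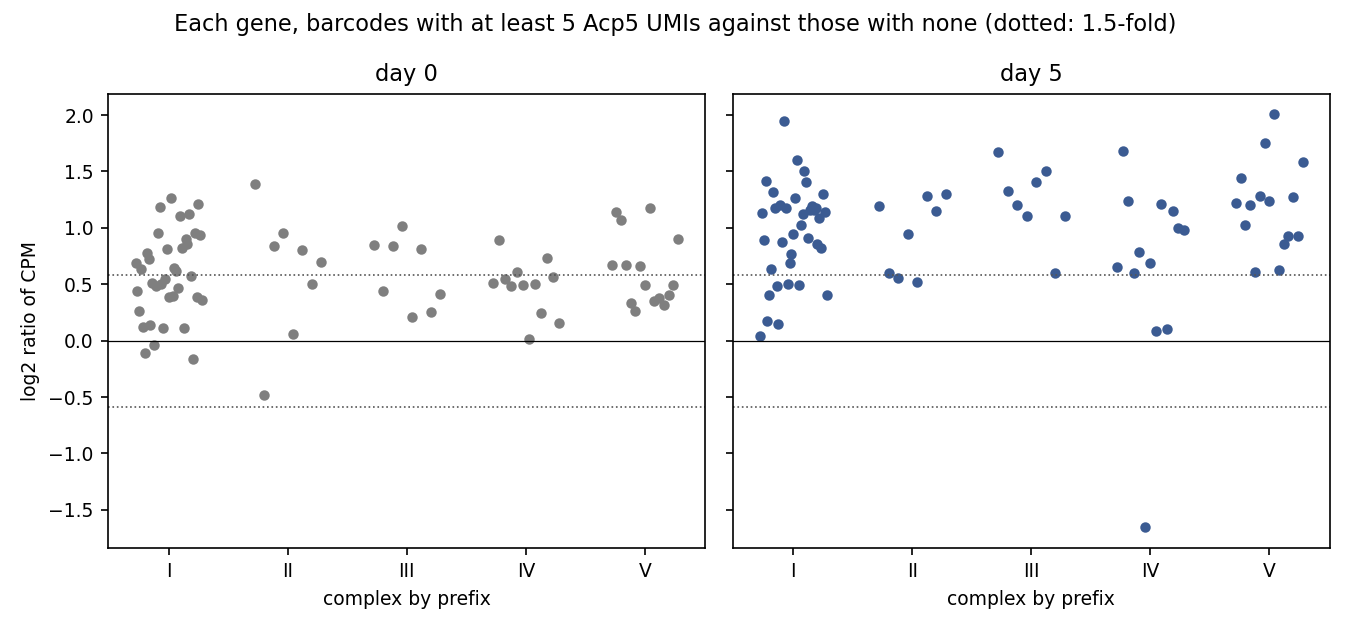
Log2 ratio of CPM for each nuclear subunit gene with a UMI there, in barcodes with at least 5 Acp5 UMIs against those with none, by complex, at days 0 and 5; dotted lines mark 1.5-fold. At day 5 the points centre near a log2 of 1.11 and 1 gene, Cox6b2, lies below 0; at day 0 they centre near 0.55.

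Against day 0, the higher share of day 5 was not seen without these barcodes, while against day 1 a smaller difference remained. Without the 86 barcodes of day 5, which held 9.16% of its UMIs, and the 81 of day 0, which held 2.28%, the member share was 2.90% at day 5 and 2.91% at day 0, a ratio of 0.996 (0.990 to 1.003). Against day 1, with 22 barcodes left out there, the day 5 ratio was 1.034 (1.029 to 1.038). The barcodes left out at day 5 and day 0 were not alike in Acp5 level. Those with 5 to 19 Acp5 UMIs had 985 Acp5 CPM at day 5 and 7839 CPM at day 0, and a cut at a like level was not tested. Barcodes without an Acp5 UMI had medians of 3780 UMIs at day 5 and 1054 at day 0. Within Acp5-negative barcodes the day 5 share was 2.86% and the day 0 share 2.89%, a ratio of 0.992 (0.985 to 0.999). In the same barcodes day 5 was at 1.022 times day 1 (1.018 to 1.027) and 1.035 times day 2 (1.030 to 1.040). Against day 0, 5 members were at least 1.5-fold higher (14.4% of all genes): Atp5e, Cox6b2, Ndufa3, Ndufb2 and Ndufs4. None was 1.5-fold lower (8.48%). Complex V was still higher there, at 1.12 times day 0 (1.11 to 1.14), while complexes I to IV lay between 0.946 and 0.974. Atp5g3 had 222 CPM at day 5 and 156 CPM at day 0 in Acp5-negative barcodes, a ratio of 1.43 (1.30 to 1.56). Ndufa6 (352 and 522 CPM, 0.674) and Cox7a2l (382 and 518 CPM, 0.737) kept their lower level at day 5.

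The size of the Acp5 difference at day 5 varied with the barcodes compared. The choices of depth band, Spp1, cycling genes and members past 1.5-fold were made with the values known. Among barcodes of 3000 to 6000 UMIs, a band below the median of the upper Acp5 classes, the ratio was 1.08 (1.06 to 1.09) and no member passed 1.5-fold (3.63% of all genes). Without Spp1-positive barcodes it was 1.27 with 9 members (6.97% of all genes), and without barcodes with a UMI of Mki67 or Top2a 1.32 with 10 members (5.69%). With at least 2 Acp5 UMIs for a positive call it was larger, at 1.83 with 62 members (19.9%). It was 1.53 with every barcode thinned to 500 UMIs, for Acp5 and the members alike, so that each barcode weighed the same. Thinning also left 125 Acp5-positive barcodes in place of 493, so this value changes the marker call as well as the weighting. The ratio was 1.51 for the 21 positive barcodes with none of the other 6 markers, against all Acp5-negative barcodes. Barcodes with both Acp5 and Spp1 had a member share of 4.60% (222 barcodes), those with Acp5 alone 3.61% (271), those with Spp1 alone 2.92% (876) and those with neither 2.83% (1866).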

How the data were processed

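Libraries of sorted synovial cells were made with 10x Chromium 3' v2 chemistry, per the labels' protocols. The authors deposited raw UMI counts, in whole numbers, for each gene in each barcode. Cell Ranger 2.1.0, Seurat 2.3, R 3.5.2 and the mm10 build are named in the submitters' processing notes, without the step each performed. A gene seen in fewer than 5 barcodes of a library is missing from its file, so absence from a list does not mean 0. Doublets were not removed. The number of barcode sequences that 2 libraries share was 10 to 22 per pair.

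From these counts, UMIs were summed over retained barcodes with Python 3.11.15, NumPy 2.4.6, pandas 2.3.3 and SciPy 1.17.1, checked on simulated data. Intervals at 95% are exact, from Poisson counts for a ratio and by Clopper-Pearson for a share. Genes tested had a mean of at least 10 CPM over the 4 libraries. In ratios a count of 0 was set to 3, and a gene with no UMI on one side was not called higher there. UMI counts at transcript ends do not scale with length, and capture differs between genes.

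Named members had at least 50 CPM in either library and passed 1.25-fold in a ranking of log2 ratios with 5 CPM added: the first 6 each way at day 5, the first 3 in the other day comparisons, the first 2 each way per marker by the mean over libraries, and all isoform sets. Members beyond that rule (Atp5b, Atp5a1, Atp5l, Sdha and those with the highest ratios by Acp5) were chosen once their values were seen. The members and lists were chosen with earlier results of these data known. Alternatives changed the barcode filters, the low-value filter, the total, the scaling, the depth and the marker call.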

Additional observations from a re-analysis of the deposited data

Results flagged for a closer look

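For 3 markers the member share of positive barcodes, relative to negative ones, lay on different sides of 1 in different libraries, with each interval clear of 1. Each is set apart because the direction differs between days, and the differences between days were not tested. Aqp1-positive over Aqp1-negative barcodes gave 0.986, 1.08, 1.09 and 0.975 at days 0, 1, 2 and 5. With marker and members both counted after thinning to 500 UMIs, day 0 was at 0.992 (0.974 to 1.010) and day 5 at 1.023 (0.995 to 1.052). Neither interval thus lay below 1. H2-Aa-positive over H2-Aa-negative barcodes gave 0.963, 0.957, 0.958 and 1.08 at days 0, 1, 2 and 5. After thinning the day 5 value was 0.936 (0.917 to 0.955), on the same side of 1 as the other days. For positive barcodes with none of the other 6 markers it was 0.927 (0.915 to 0.939), against all H2-Aa-negative barcodes. Barcodes with other markers, Acp5 included, were thus left out on the positive side only, so this value cannot settle the direction. Plac8-positive over Plac8-negative barcodes gave 1.10, 0.946 and 0.922 at days 0, 1 and 5, the first 2 values resting on 32 and 59 positive barcodes; day 2 gave 1.01 (0.984 to 1.033).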

How the results depend on the processing

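No paired analysis was possible because each day has 1 library and no result comes from a test. The shallow day 0 library, the lone library per day and the few Acp5-rich barcodes limit what these counts can show, and the causes of the shifts below were not tested.

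The day 1, 2 and 5 to day 0 ratios of the member share were 0.929, 0.911 and 1.09 without mt- and ribosomal protein UMIs in the total, 0.951, 0.937 and 1.07 with at least 200 genes, 0.992, 0.979 and 1.12 with at least 1000 genes, and 0.862, 0.858 and 1.01 with median-ratio size factors. They were 0.942, 0.920 and 0.989 with the mean of each barcode's share, 0.934, 0.861 and 0.965 in barcodes of 1000 to 2000 UMIs (78 at day 5), and 0.970, 0.959 and 0.992 without Acp5-positive barcodes, so that the last 3 choices turned the day 5 direction. Without barcodes of at least 5 Acp5 UMIs the day 5 ratio was 0.996, and under 5% mt- UMIs the day 2 ratio was 0.954. The median member log2 ratios were -0.19, -0.26 and -0.14 in the depth band, -0.22, -0.17 and 0.015 with median-ratio size factors, and -0.025 at day 5 without Acp5-positive barcodes. Ndufa5 was at 1.01 at day 5 in the depth band.

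With the share of all genes in parentheses, members at least 1.5-fold higher numbered 3, 3 and 13 at days 1, 2 and 5 with at least 1000 genes (24.3%, 24.0% and 24.99%), 2 and 1 at days 1 and 2 in the depth band (23.5% each), 0 at day 1 with a mean of 50 CPM (8.26%), 2 at day 1 with no low filter (18.2%), and 5 at day 5 without Acp5-positive barcodes (14.4%). Members 1.5-fold lower numbered 7, 13 and 8 in the depth band (11.99%, 13.1% and 19.7%), 1 at days 2 and 5 with at least 1000 genes (11.2% and 14.2%), 1 at day 2 with a mean of 50 CPM (5.45%), and 1 at day 5 with median-ratio size factors (11.6%) or no low filter (12.1%).

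Over the 4 libraries the mean log2 ratio was 0.22 for Acp5, 0.070 for Spp1, 0.047 for Aqp1, -0.046 for Sparc, -0.039 for Cd163, -0.017 for H2-Aa and -0.013 for Plac8. With at least 2 marker UMIs it was 0.40 for Acp5, 0.12 for Spp1, 0.050 for Aqp1, -0.064 for Sparc, -0.062 for Cd163, -0.056 for H2-Aa and -0.057 for Plac8. With marker and members both counted after thinning to 500 UMIs, it was 0.30 for Acp5, -0.039 for Spp1, 0.053 for Aqp1, -0.011 for Sparc and -0.11 for H2-Aa. Without mt- and ribosomal protein UMIs it was 0.24 for Acp5, 0.025 for Aqp1, -0.11 for Sparc, 0.022 for H2-Aa and 0.046 for Plac8. Under 5% mt- UMIs it was 0.20 for Acp5, 0.059 for Spp1, 0.053 for Aqp1 and -0.041 for Sparc. Positive barcodes with none of the other 6 markers were set against all negative barcodes, which kept theirs. The mean log2 ratio was then 0.48 for Acp5, -0.011 for Spp1, 0.031 for Aqp1, -0.091 for Sparc, -0.10 for Cd163 and -0.15 for H2-Aa. For Plac8 this choice could not give a value, since no barcode was left in a library. Acp5 and Aqp1 stayed above 0 under each of these choices.

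The alternatives on Acp5 barcodes were chosen after seeing the data. The day 5 Acp5 ratio was 1.08 with 0 members past 1.5-fold (3.63% of all genes) at 3000 to 6000 UMIs, 1.27 with 9 (6.97%) without Spp1-positive barcodes, 1.32 with 10 (5.69%) without Mki67 or Top2a UMIs, 1.83 with 62 (19.9%) at 2 or more Acp5 UMIs, 1.51 with 44 (13.3%) under median-ratio size factors, and 1.56 with 48 (15.1%) without mt- and ribosomal protein UMIs.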
